A study of Mus musculus with 2 samples.

Results

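The 43 genes described here have a symbol that begins with Kcn, the mouse prefix for potassium channel genes, and are listed in the raw tables of both libraries, with Kcnj8 left out. They were taken by name and not by their values, from 16098 genes listed in both tables. A further 1 Kcn gene was listed for the colon alone and 19 for the small intestine alone. By symbol, 15 of the 43 were grouped as voltage-gated channel subunits, 11 as auxiliary proteins, 8 as two-pore channels and 1 (Kcnj13) as an inward rectifier. A group of 7, with Kcnma, Kcnn, Kcnt and Kcnu symbols, is called calcium- or sodium-activated here, without a check of what opens each channel. The last, Kcnq1ot1, is a noncoding transcript that runs antisense to Kcnq1 and is no channel gene.

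The data are 1 colon and 1 small intestine library of single-cell RNA sequencing, made in droplets from stromal cells (those that support the gut wall) of control mice. Both tissues were healthy and untreated, were stripped of epithelium and were digested with collagenase and dispase, for 60 min (colon) or 45 min (small intestine). Live cells negative for Epcam and CD45 were sorted, which leaves out epithelial and immune cells, and about 16000 cells were loaded per library. The strain, sex, age and number of the animals are not given in the labels, and all values were read from cells that carry no stated allele or transgene. With 1 library per tissue there is no replicate, so no test was made, and all 95% intervals cover counting error only, not animals or dissociations.

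The colon library held 6018 cells (median 6598 unique molecular identifiers, UMIs, per cell; a UMI marks 1 captured RNA molecule), and the small intestine library 9359 cells (median 5943). The authors' labels with at least 50 cells in each tissue, 6 in all, were compared. CD81- FBs are fibroblasts of the lamina propria and CD81+ trophocytes are fibroblasts near the crypt base. PDGFRa-high SEMFs, subepithelial myofibroblasts, called SEMFs here, lie beneath the epithelium. LECs and BECs are the endothelial cells of lymph and blood vessels, and SMCs are smooth muscle cells. The markers of the LEC, SMC and SEMF labels were highest under their own label for 6 of 6, 6 of 6 and 7 of 7 genes in the colon, and for 6 of 6, 6 of 6 and 6 of 7 in the small intestine. For BECs these counts were 6 of 6 and 5 of 6, for trophocytes 5 of 6 in both libraries, and for CD81- FBs 4 of 4 and 2 of 4. The SMC label of the small intestine carried fibroblast transcripts: Adamdec1, a marker of CD81- FBs, stood at 9211 CPM (UMIs per 1000000 UMIs of the label) there, against 8191 in CD81- FBs of the same library and 1242 in colon SMCs. The other 3 CD81- FB markers were lower in this SMC label than in CD81- FBs, at 333 against 561 CPM for Fgfr2, 53.8 against 268 CPM for Edil3 and 21.7 against 106 CPM for Cxcl13. Of its 468 cells, 394 held at least 3 UMIs of smooth muscle markers, as did all 125 colon SMCs. Colon BECs numbered 53 cells with 269665 UMIs, so 3 UMIs there already equal 11.1 CPM. Colon cells with Xist UMIs and colon cells with UMIs of Y-linked genes were both present. The libraries shared 21 cell barcodes (0.349% of the colon's), and doublets were not removed.

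Potassium channels let potassium leave the cell and so set the resting membrane potential. In smooth muscle, opening of large-conductance calcium-activated channels, whose pore is encoded by Kcnma1 and whose regulatory subunit is encoded by Kcnmb1, hyperpolarizes the cell, closes voltage-gated calcium channels and relaxes the muscle. Voltage-gated channels repolarize after an action potential, two-pore channels carry background current, and small-conductance channels (Kcnn genes) open on a rise of calcium. Platelet-derived growth factor receptor alpha-positive cells of the gut muscle coat are known for small-conductance channels that respond to purines.

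The sequence upstream of the transcription start was shown for 5 genes that stand for the 3 patterns below: the smooth muscle gene Kcnmb1, Kcnk5 and Kcnn3, both highest in LECs though Kcnn3 was broad, and the myofibroblast genes Kcnq5 and Kcnk13. They are read 5′ to 3′ on the gene's strand from RefSeq promoter windows on GRCm38.p6, with CG dinucleotides, the sites where mammalian DNA is methylated, in capitals. Coordinates are chr11:33962763-33963012, plus strand, for Kcnmb1, chr14:20181810-20182032, minus strand, for Kcnk5, chr3:89519914-89520163, plus strand, for Kcnn3, chr1:21961943-21962192, minus strand, for Kcnq5, and chr12:99964249-99964498, plus strand, for Kcnk13.
Kcnmb1: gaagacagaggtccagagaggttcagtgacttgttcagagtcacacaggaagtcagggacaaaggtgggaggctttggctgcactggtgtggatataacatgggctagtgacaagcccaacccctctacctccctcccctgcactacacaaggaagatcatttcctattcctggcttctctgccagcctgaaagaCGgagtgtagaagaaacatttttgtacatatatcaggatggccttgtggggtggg
Kcnk5: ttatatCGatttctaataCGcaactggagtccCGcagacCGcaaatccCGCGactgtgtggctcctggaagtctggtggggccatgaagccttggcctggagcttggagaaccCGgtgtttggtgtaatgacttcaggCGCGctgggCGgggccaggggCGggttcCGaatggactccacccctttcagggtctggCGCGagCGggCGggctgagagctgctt
Kcnn3: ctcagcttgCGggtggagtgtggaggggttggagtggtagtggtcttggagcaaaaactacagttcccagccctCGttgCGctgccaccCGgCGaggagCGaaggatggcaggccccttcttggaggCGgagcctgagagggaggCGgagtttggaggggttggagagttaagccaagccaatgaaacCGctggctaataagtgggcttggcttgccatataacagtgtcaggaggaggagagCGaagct
Kcnq5: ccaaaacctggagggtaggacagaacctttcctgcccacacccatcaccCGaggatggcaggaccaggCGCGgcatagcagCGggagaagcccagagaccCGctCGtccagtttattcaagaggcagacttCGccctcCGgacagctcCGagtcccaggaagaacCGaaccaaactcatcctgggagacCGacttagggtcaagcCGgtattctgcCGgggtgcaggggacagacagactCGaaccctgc
Kcnk13: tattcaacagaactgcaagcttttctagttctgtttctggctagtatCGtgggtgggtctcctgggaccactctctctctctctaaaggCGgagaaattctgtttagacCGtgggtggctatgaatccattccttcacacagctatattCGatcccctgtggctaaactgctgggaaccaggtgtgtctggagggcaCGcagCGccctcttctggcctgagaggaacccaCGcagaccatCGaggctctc
The 5 sequences held 1, 16, 10, 14 and 8 CG dinucleotides in this order, and 50.8% (Kcnmb1) to 61.4% (Kcnk5) of their bases were G or C. All are 250 bases long but that of Kcnk5, where 27 bases that lie in its first exon were left out and 223 are shown. Over all 32851 windows of the table the median was 6 CG dinucleotides in 250 bases, and 92.1% of windows held at least the 1 of Kcnmb1. The table had windows for 33 of the 43 members, and these 48 windows held no CArG box, the motif of serum response factor (1.47% of all windows hold one), and no TGTTTAC on either strand, a forkhead motif (3.17% of all windows). No match says only that these letters are not in these windows.

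Across both tissues, 7 members had the same leading label in both libraries by at least 2-fold over the next label: Kcnma1 and Kcnh2 in SMCs, Kcnk5 and Kcng2 in LECs, and Kcnq5, Kcnk13 and Kcng4 in SEMFs. No member led this way in CD81- FBs, trophocytes or BECs in both libraries, although with means of natural log values Kcnt2 did so in trophocytes. A member entered with at least 10 UMIs in its leading label of each library, which 23 of 43 reached, 4 reached in the colon alone, 13 in the small intestine alone and 3 in neither. The 7 are 30.4% of those 23, where 8.35% of 11224 genes met the same rule. By label the shares of all genes were 1.02% (SMCs), 2.43% (LECs), 1.65% (SEMFs), 1.26% (trophocytes), 1.81% (BECs) and 0.178% (CD81- FBs). For 18 of the 23 the colon and the small intestine had the same leading label, against 50.2% of all genes. In single libraries, 11 of 27 members met the 2-fold rule in the colon (16.7% of all genes) and 22 of 36 in the small intestine (16.5%). By family, 4 of 7 voltage-gated, 2 of 4 two-pore, 1 of 4 calcium- or sodium-activated and 0 of 7 auxiliary members tested met it in both.

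**Figure D1:**
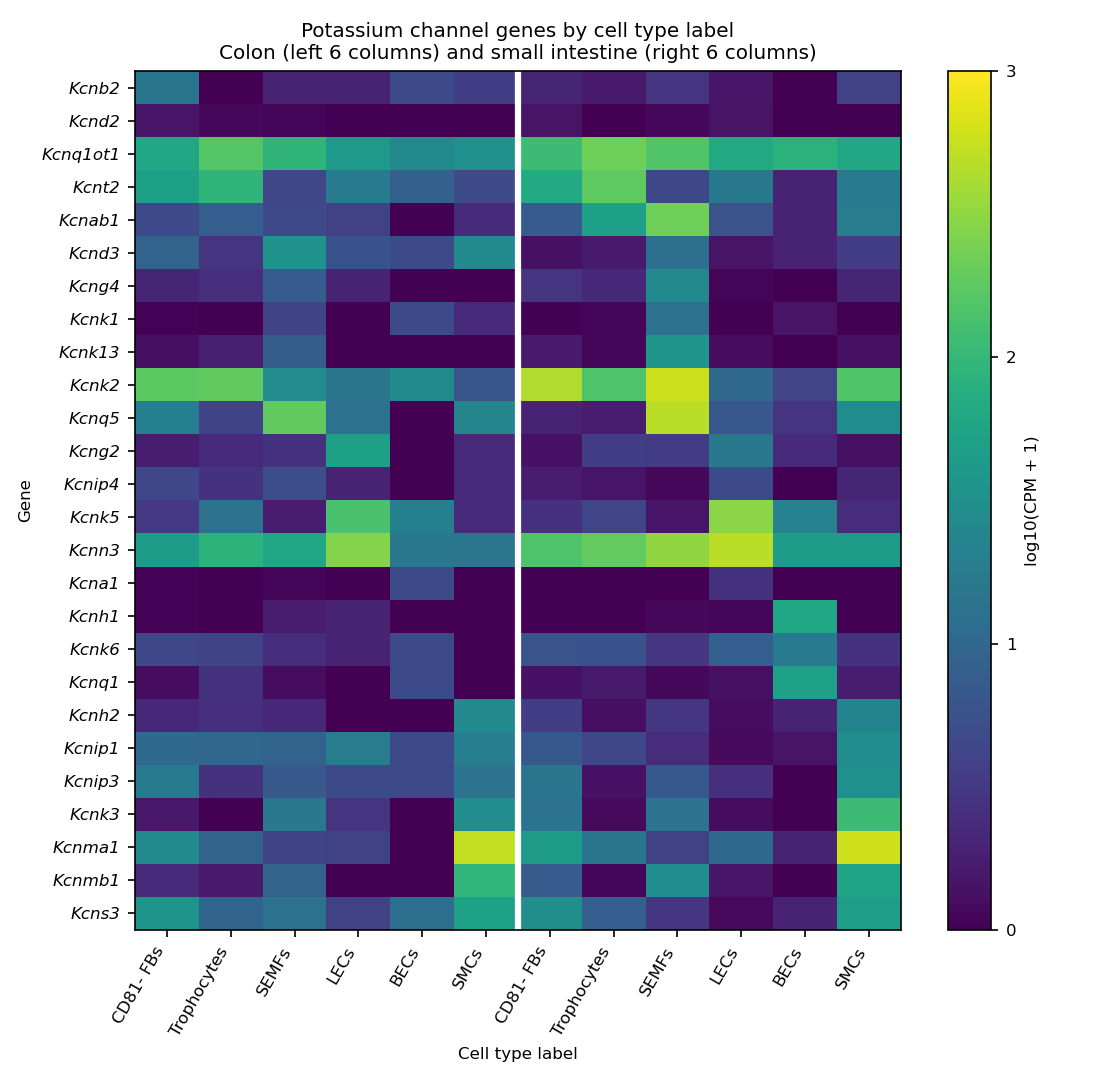
Levels of the 26 named members (rows) by cell type label in the colon (left 6 columns) and small intestine (right 6 columns), as log10 of CPM plus 1. Kcnma1 is brightest under the SMC label of both tissues, Kcnk5 and Kcnn3 under LECs, Kcnq5 under SEMFs, and Kcnh1 and Kcnq1 under BECs of the small intestine.

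In SMCs, the pore gene of the large-conductance calcium-activated channel gave the clearest pattern. Kcnma1 (chromosome 14, 23289431 to 24014491, minus strand, GENCODE M21 on GRCm38) stood at 526 CPM (interval 476 to 579) in colon SMCs and 603 CPM (575 to 633) in small intestinal SMCs. The next label was CD81- FBs in both libraries, at 25.9 and 41.7 CPM, which gave folds of 20.3 (17.9 to 23.0) and 14.5 (13.3 to 15.7). Kcnma1 was therefore high in SMCs of both tissues, and fibroblast levels were more than 10-fold below them. The share of cells with a Kcnma1 UMI was 83.2% of colon SMCs (75.5 to 89.3) and 73.5% of small intestinal SMCs (69.3 to 77.5). After each cell was thinned to 2000 UMIs, these shares were 58.5% and 51.2%, against 0.922% and 0.894% of LECs. Unthinned, LECs gave 1.38% and 1.76%, at median depths of 4545 and 4118 UMIs, against 5526 and 5645 for SMCs. In the 394 small intestinal SMCs with smooth muscle UMIs the Kcnma1 level was 647 CPM, and in the other 74 it was 344.

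Kcnmb1, the regulatory subunit that raises the calcium sensitivity of this channel, stood at 93.2 CPM (72.9 to 117) in colon SMCs and 55.9 CPM (47.5 to 65.4) in small intestinal SMCs. SEMFs came next, at 8.07 CPM (6.16 to 10.4) in the colon and 28.8 CPM (24.8 to 33.2) in the small intestine. The SMC lead was thus 11.6-fold (8.09 to 16.6) in the colon and 1.94-fold (1.56 to 2.41) in the small intestine, just under the 2-fold rule. The gene (chromosome 11, 33963013 to 33973641, plus strand) lies inside Kcnip1 on the other strand, and the sources used here do not say whether reads were counted by strand. Kcnip1, a cytoplasmic partner of Kv4 channels, gave 18.1 and 28.5 CPM in SMCs, so reads of the pair cannot be told apart with certainty. Kcnmb4, another regulatory subunit, led in SMCs with few UMIs, 5 in the colon (6.47 CPM) and 12 in the small intestine (4.28 CPM).

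Kcnh2, the ERG channel that repolarizes heart and gut muscle, stood at 24.6 CPM (14.8 to 38.4) in colon SMCs and 21.7 CPM (16.6 to 27.9) in small intestinal SMCs. All other labels lay at or below 2.63 CPM. These levels rested on 19 and 61 UMIs, and the folds over the next label were 15.7 (6.93 to 37.7) and 8.27 (5.63 to 12.2). No cell of the colon library held more than 1 Kcnh2 UMI under the SMC label.

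The acid-sensitive background channel gene Kcnk3 led in SMCs of both libraries, at 28.5 CPM (17.9 to 43.1) in the colon and 113 CPM (101 to 126) in the small intestine. In the colon SEMFs followed at 15.1 CPM, a fold of 1.89 (1.14 to 3.01), and in the small intestine CD81- FBs followed at 12.8 CPM, a fold of 8.83 (7.47 to 10.5). Of the Kv4 genes, which give rapidly inactivating current, Kcnd3 stood at 32.4 CPM in colon SEMFs and 25.9 CPM in colon SMCs, against 11.5 and 2.49 CPM in the small intestine. Kcns3, a silent subunit that modifies other voltage-gated channels, stood at 50.5 and 46.7 CPM in SMCs and at 34.8 and 29.0 CPM in CD81- FBs. Kcnip3 stood at 30.6 CPM in small intestinal SMCs but at 12.9 CPM in colon SMCs, where CD81- FBs had 16.9 CPM. Kcne4, an inhibitory partner of Kv7 and other channels, stood at 15.5 and 20.3 CPM in SMCs and at 12.7 and 11.1 CPM in trophocytes. Kcnn2, a small-conductance channel gene, had 3 UMIs in colon SMCs and 10 in small intestinal SMCs. The SMC values of the small intestine carry the fibroblast transcripts described above, and their part in these levels was not tested.

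**Figure D2:**
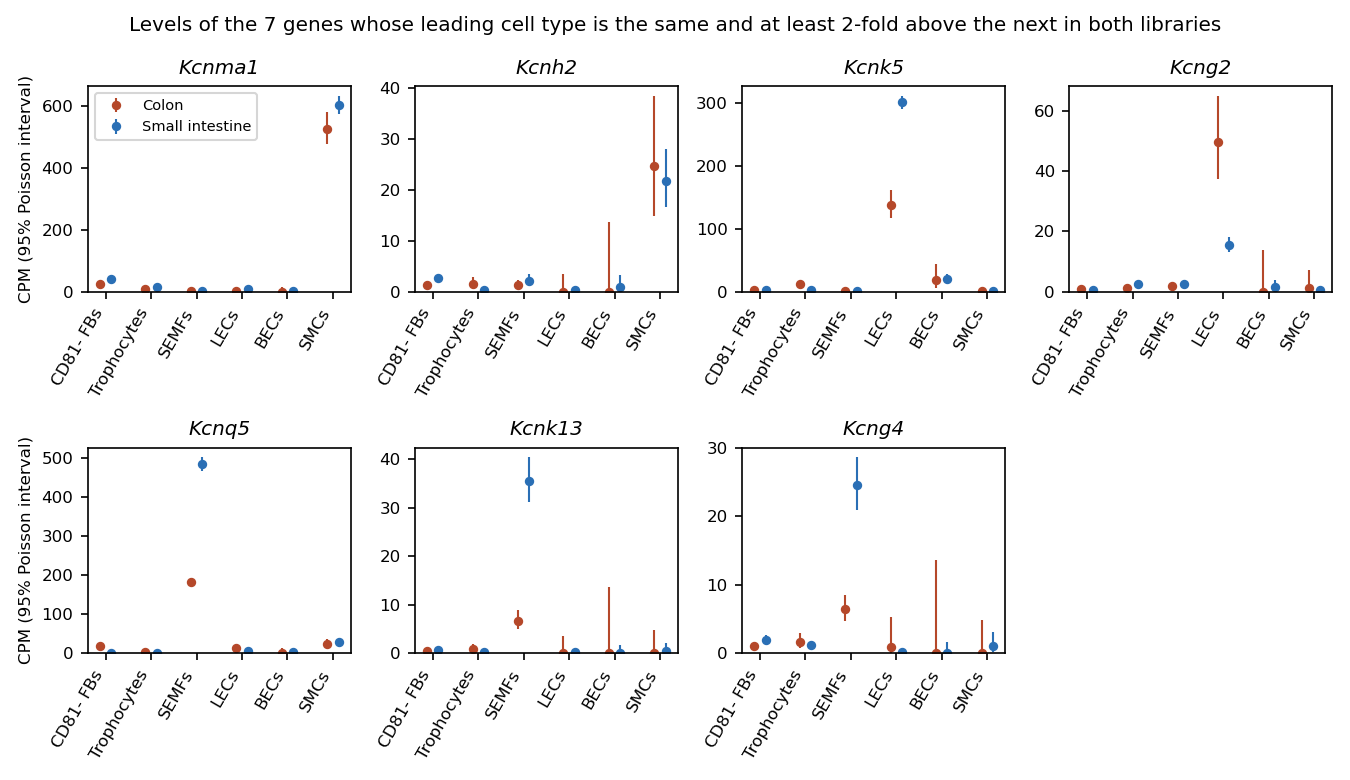
CPM with exact 95% Poisson intervals (vertical axis) of the 7 members whose leading label is the same and at least 2-fold above the next in both libraries, for each label (horizontal axis), in the colon (red) and small intestine (blue). Kcnma1 lies at 526 and 603 CPM in SMCs and at 41.7 CPM or below elsewhere, and Kcnq5 lies at 183 and 484 CPM in SEMFs.

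In lymphatic endothelium, Kcnk5, the pH-sensitive TASK-2 background channel, stood at 138 CPM (117 to 162) in the colon and 301 CPM (291 to 312) in the small intestine. BECs came next, at 18.5 and 20.5 CPM, with folds of 7.44 (3.12 to 23.3) and 14.7 (10.9 to 20.2). A Kcnk5 UMI was seen in 41.5% of colon LECs (34.8 to 48.3) and 63.2% of small intestinal LECs (61.3 to 65.1). Thinned, these shares were 21.2% and 42.0%, and those of SEMFs, which were deeper (median 6345 and 5510 UMIs), were 0% (up to 0.336%) and 0.185%. SEMFs lay at 0.672 and 0.460 CPM, below BECs, so their shares do not measure the lead over the next label. Unthinned, SEMFs gave 0.452% and 0.18%. Kcng2, a silent voltage-gated subunit, was also highest in LECs, at 49.7 CPM (37.3 to 65.1) in the colon and 15.5 CPM (13.3 to 18.0) in the small intestine, but its level ran in the opposite order between tissues.

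Kcnn3, a small-conductance calcium-activated channel, was highest in LECs as well, at 275 CPM (244 to 308) in the colon and 494 CPM (481 to 507) in the small intestine. It was broad: the next label stood at 86.1 CPM in the colon (trophocytes, 3.20-fold lower) and 317 CPM in the small intestine (SEMFs, 1.56-fold lower). The thinned share of LECs with a Kcnn3 UMI was 41.9% and 53.7%, and in BECs it was 0% (up to 7.11%) and 5.17%. BECs, at 14.8 and 43.3 CPM, were not the next label, so their shares do not measure the lead over it. Unthinned, the shares were 70.0% and 73.7% of LECs and 5.66% and 7.25% of BECs. Among its relatives, Kcnn1 stayed at or below 2.51 CPM in every compared label, and Kcnn4, the intermediate-conductance channel of endothelium, had 22 UMIs (10.0 CPM) in small intestinal BECs and 2 in colon BECs. Kcna1 and Kcnip4 also led in small intestinal LECs by the 2-fold rule, but 10 of 20 Kcna1 UMIs and 34 of 42 Kcnip4 UMIs came from 1 cell each.

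In blood endothelium of the small intestine, 4 of the 36 members tested there led by at least 2-fold (4.48% of all genes). Kcnh1, an EAG channel, stood at 61.6 CPM (51.6 to 72.9) and every other label of that library was at or below 0.153 CPM. Kcnq1, a Kv7 channel, stood at 50.6 CPM (41.7 to 61.0), and the next label was at 0.713 CPM. Kcnk6 stood at 16.4 CPM and Kcnn4 at 10.0 CPM. In colon BECs, Kcnh1 had 0 UMIs, for which the Poisson interval reaches 13.7 CPM, and Kcnq1 had 1 UMI (3.71 CPM). Kcnq1ot1, whose transcript lies within Kcnq1 on the opposite strand, stood at 83.0 CPM in small intestinal BECs and 217 CPM in trophocytes. Kcnq1 was at 0.665 CPM in those trophocytes, so the label that led for one was not that of the other. Kcnh1 overlaps Hhat on the opposite strand, so some of its reads may belong to that gene.

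In myofibroblasts, Kcnq5, a Kv7 channel that carries slow noninactivating current, stood at 183 CPM (173 to 193) in the colon and 484 CPM (468 to 502) in the small intestine. SMCs came next, with 17 UMIs in the colon, 12 of them in 1 cell, and at 27.8 CPM in the small intestine. The folds were 8.31 (5.17 to 14.3) and 17.4 (13.9 to 22.1). A UMI was seen in 32.6% of colon SEMFs (29.8 to 35.4) and 58.6% of small intestinal SEMFs (55.6 to 61.5), or 20.4% and 44.3% after thinning, against 0% (up to 7.11%) and 0.449% of BECs, whose median depth was lower (3821 and 3652 UMIs, against 6345 and 5510 in SEMFs). BECs, with 0 and 4 UMIs, were not the next label, so their shares do not measure the lead over SMCs. Kcnk13, a background channel, stood at 6.72 CPM (4.99 to 8.86) and 35.6 CPM (31.1 to 40.5) in SEMFs. Kcng4, a silent subunit, stood at 6.45 CPM (4.76 to 8.56) and 24.5 CPM (20.9 to 28.6). Both were at or below 1.89 CPM in all other labels. Thinned shares of SEMFs were 1.19% and 6.30% for Kcnk13 and 1.37% and 4.82% for Kcng4.

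Other members differed between the SEMFs of the 2 tissues. Kcnab1, a cytoplasmic Kv-beta subunit, stood at 218 CPM (207 to 230) in small intestinal SEMFs and 3.63 CPM (2.39 to 5.28) in colon SEMFs, and at 47.7 against 6.91 CPM in trophocytes. Kcnk2, the mechanosensitive TREK-1 background channel, stood at 583 CPM (565 to 602) in small intestinal and 27.0 CPM (23.4 to 31.0) in colon SEMFs. In CD81- FBs Kcnk2 stood at 434 CPM (425 to 443) and 174 CPM (169 to 180), and in trophocytes at 149 and 186 CPM. Kcnk2 was thus high in all 3 fibroblast labels of the small intestine but in CD81- FBs and trophocytes alone among colon fibroblasts. Kcnk1 stood at 12.1 CPM in small intestinal SEMFs and 3.09 CPM in colon SEMFs.

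Trophocytes led for Kcnt2, a sodium-activated channel, at 91.1 CPM (83.8 to 98.8) in the colon and 179 CPM (172 to 186) in the small intestine. CD81- FBs followed at 49.1 and 66.4 CPM, so the lead was 1.86-fold (1.68 to 2.05) in the colon and 2.69-fold (2.52 to 2.88) in the small intestine. SEMFs, the third fibroblast label, lay at 3.36 and 3.53 CPM. In CD81- FBs of the colon, Kcnb2, a delayed rectifier, stood at 13.7 CPM (12.3 to 15.2) and led by 3.69-fold over BECs (1 UMI), with a counting interval of 0.658 to 146. Kcnd2 had 12 UMIs there. A further 8 colon cells labelled ecmPCs, myPCs or endoPCs were too few to compare: Kcnq5 had 16 UMIs, Kcne4 had 10 and Kcnt2 had 7 in them.

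**Figure D3:**
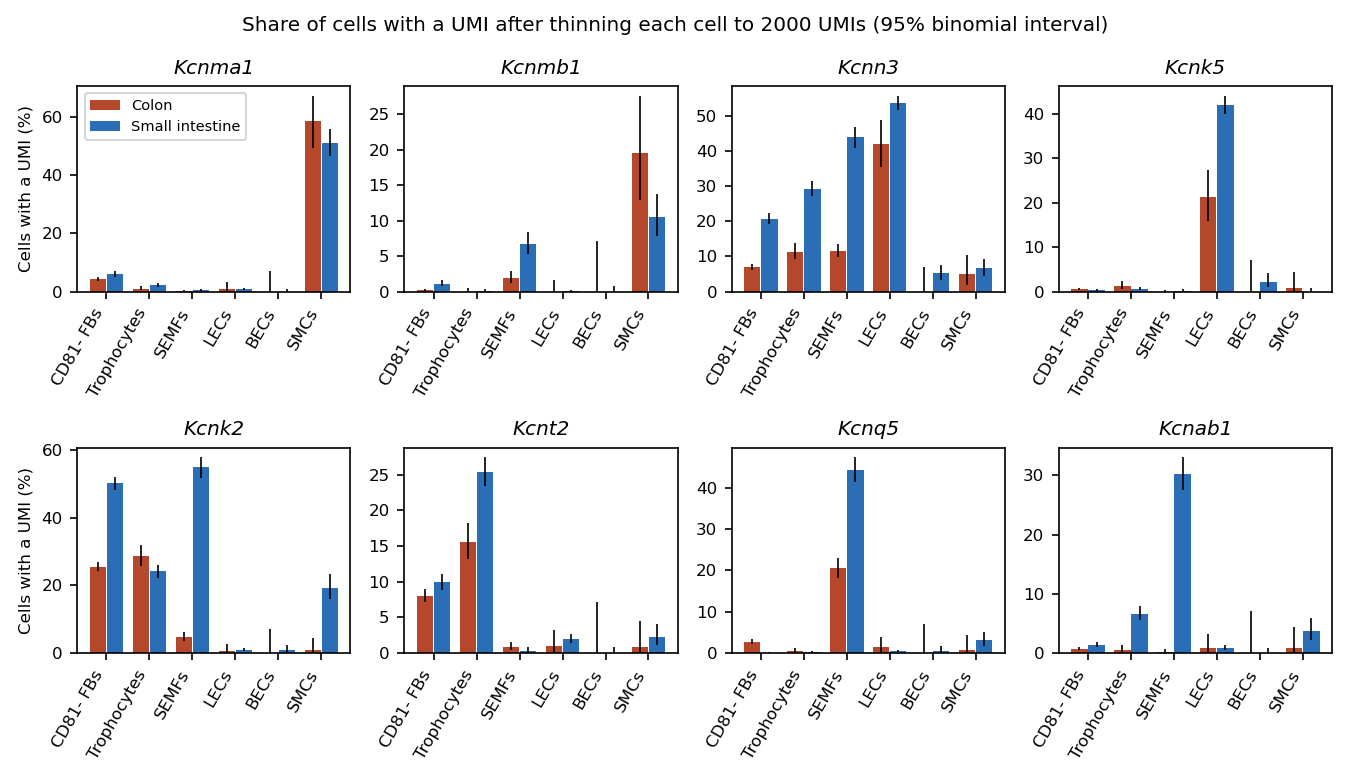
Share of cells with a UMI (vertical axis, percent, with exact binomial 95% intervals) of 8 members by label after each cell was thinned to 2000 UMIs, in the colon (red) and small intestine (blue). Kcnma1 reaches 58.5% and 51.2% of SMCs, Kcnk5 21.2% and 42.0% of LECs, and Kcnab1 30.2% of small intestinal and 0.182% of colon SEMFs.

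The remaining members were low. Kcnd1, a Kv4 gene, led in trophocytes at 4.08 and 3.86 CPM. Kcnrg, Kcnu1, Kcna2, Kcna6, Kcnab2, Kcnab3, Kcnh6, Kcnk7 and Kcnk12 had between 4 (Kcnh6, small intestine) and 115 UMIs (Kcnu1, small intestine) over the 6 labels of a library. Kcnip2 led at 2.20 CPM in colon trophocytes and 4.45 CPM in small intestinal SEMFs. Kcnj13, the inward rectifier, had 11 UMIs in small intestinal SEMFs.

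When fibroblast and endothelial labels were each pooled, an alternative chosen after the data were seen, 13 of 24 members led by 2-fold in the same class in both libraries (12% of all genes). Fibroblasts had 5 (2.75% of all genes): Kcnk2, Kcnt2, Kcnq5, Kcng4 and Kcnq1ot1. Endothelium had 3 (7.53%): Kcnk5, Kcng2 and Kcnn3. SMCs had 5 (1.74%): Kcnma1, Kcnmb1, Kcnh2, Kcnk3 and Kcne4. Kcnmb1 was at 93.2 and 55.9 CPM in SMCs against 2.49 and 7.55 CPM in pooled fibroblasts. Over single fibroblast labels, some SMC leads were under 2-fold. These were 1.94-fold over small intestinal SEMFs for Kcnmb1 and 1.89-fold over colon SEMFs for Kcnk3. For Kcne4 they were 1.22-fold over colon and 1.83-fold over small intestinal trophocytes. Not every label of a class shared its lead. Kcnn3 stood at 14.8 and 43.3 CPM in BECs, below each fibroblast label of the same library. Kcng2 had 0 and 3 UMIs in BECs. In the small intestine, Kcnq5 stood at 0.992 CPM in CD81- FBs and 0.732 CPM in trophocytes, below the 27.8 CPM of SMCs. The colon lead of Kcng4, 2.91-fold (0.509 to 116), was over 1 endothelial UMI.

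Between tissues, 118 pairs of member and label had at least 20 UMIs in both libraries together, and 58 of them differed by at least 2-fold: 22 were higher in the colon and 36 in the small intestine, over 31 members. Of all genes, 5.03% (SMCs) to 9.71% (CD81- FBs) were higher in the colon by this rule. In the small intestine it was 9.8% (trophocytes) to 20.7% (SMCs). The 58 include BEC, LEC and SMC pairs, whose small intestinal counts are not read as a result below. The median gene lay below 0 on the log2 scale of colon over small intestine in every label, from -0.09 in trophocytes to -0.31 in SEMFs. CPM are shares of a label's UMIs, so this is a relative difference and not a higher level of genes at large. The members' medians were lower than that of all genes in SMCs (-0.65), SEMFs (-0.60), LECs (-0.34), CD81- FBs (-0.27) and BECs (-1.68). In trophocytes the members' median was 0.14. That of BECs rested on 7 members with few colon UMIs. That of SMCs rested on 15, among which Kcnab1, Kcnt2 and Kcnk2 had 1, 3 and 4 colon UMIs.

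In SEMFs, 10 of 26 members were higher in the small intestine (16.6% of all genes) and 4 were higher in the colon (8.41%). Kcnab1 had a log2 ratio of colon over small intestine of -5.91 (-6.52 to -5.36), Kcnk2 of -4.43 (-4.64 to -4.23), Kcnn3 of -2.45 and Kcnq5 of -1.41 (-1.50 to -1.31). The 4 higher in colon SEMFs were Kcnip4, Kcns3 (log2 ratio 2.65), Kcnip1 (2.55) and Kcnd3 (1.49, interval 1.12 to 1.89). Kcnip4 rested on 32 UMIs against 1.

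In CD81- FBs, 6 of 34 members were higher in the small intestine (12.1% of all genes) and 7 in the colon (9.71%). Kcnk3 had the lowest ratio, -4.39 (-5.25 to -3.64), and Kcnn3 (-1.79) and Kcnk2 (-1.32) were also on the small intestinal side. On the colon side, Kcnd3 had 4.54 (3.47 to 5.88), Kcnq5 4.25 (3.60 to 4.97) and Kcnb2 3.71 (3.08 to 4.43). The level of Kcnq5 in colon CD81- FBs, 18.8 CPM, was below the 183 CPM of colon SEMFs. In trophocytes, 4 of 20 were higher in the small intestine (9.8% of all genes) and 6 in the colon (7.92%). There Kcnab1 had a log2 ratio of -2.79 (-3.26 to -2.35), Kcnn3 of -1.13, Kcnk5 of 1.92 (1.38 to 2.47) and Kcnq5, from 20 and 11 UMIs, of 2.10.

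In LECs, 5 of 16 members were higher in the small intestine (15.7% of all genes) and 4 in the colon (7.09%). On the small intestinal side, Kcnip4, Kcnk6 and Kcnrg had 1 colon UMI each and Kcnma1 had 3. They reached 20 UMIs through the small intestine, and the intervals of Kcnip4 and Kcnrg included 0. The small intestinal count is therefore not read as a result. On the colon side, Kcnip3 had 4 colon UMIs and its interval included 0. Kcnk5 was higher in the small intestine, with a log2 ratio of -1.13 (-1.38 to -0.89). Kcng2 was higher in the colon, 1.68 (1.21 to 2.13). Kcnip1 had 19 UMIs in colon LECs and 2 in small intestinal LECs. In BECs, 5 of 7 members were higher in the small intestine (18.8% of all genes) and 0 in the colon (7.18%), but the 7 had 0 to 7 UMIs in the shallow colon label and reached 20 UMIs through the small intestine, so neither count is read as a result. Kcnk2, with 7 UMIs in BECs of each library (26.0 and 3.19 CPM), fell below that minimum. In SMCs 6 of 15 were higher in the small intestine (20.7% of all genes) and 1 in the colon (5.03%). Of the former, Kcnab1, Kcnt2 and Kcnk2 had 1, 3 and 4 colon UMIs and reached 20 UMIs through the small intestine. The small intestinal count in SMCs is therefore not read as a result. The single colon gene was Kcnd3, at a log2 ratio of 3.38 (2.08 to 4.86), and Kcnma1 differed by -0.20 (-0.36 to -0.04). Among small intestinal SMCs with smooth muscle UMIs, Kcnk2 stood at 130 CPM, and in the other cells at 277 CPM, against 5.18 CPM in colon SMCs. The Kcnk2 level in CD81- FBs of the small intestine was 434 CPM and that label's marker Adamdec1 stood as high in the SMC label, while its other 3 markers were lower, and the part of fibroblast RNA in this value was not tested. Kcnk3 was higher in the cells with smooth muscle UMIs, at 124 CPM, than in the other cells, at 47.0 CPM.

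**Figure D4:**
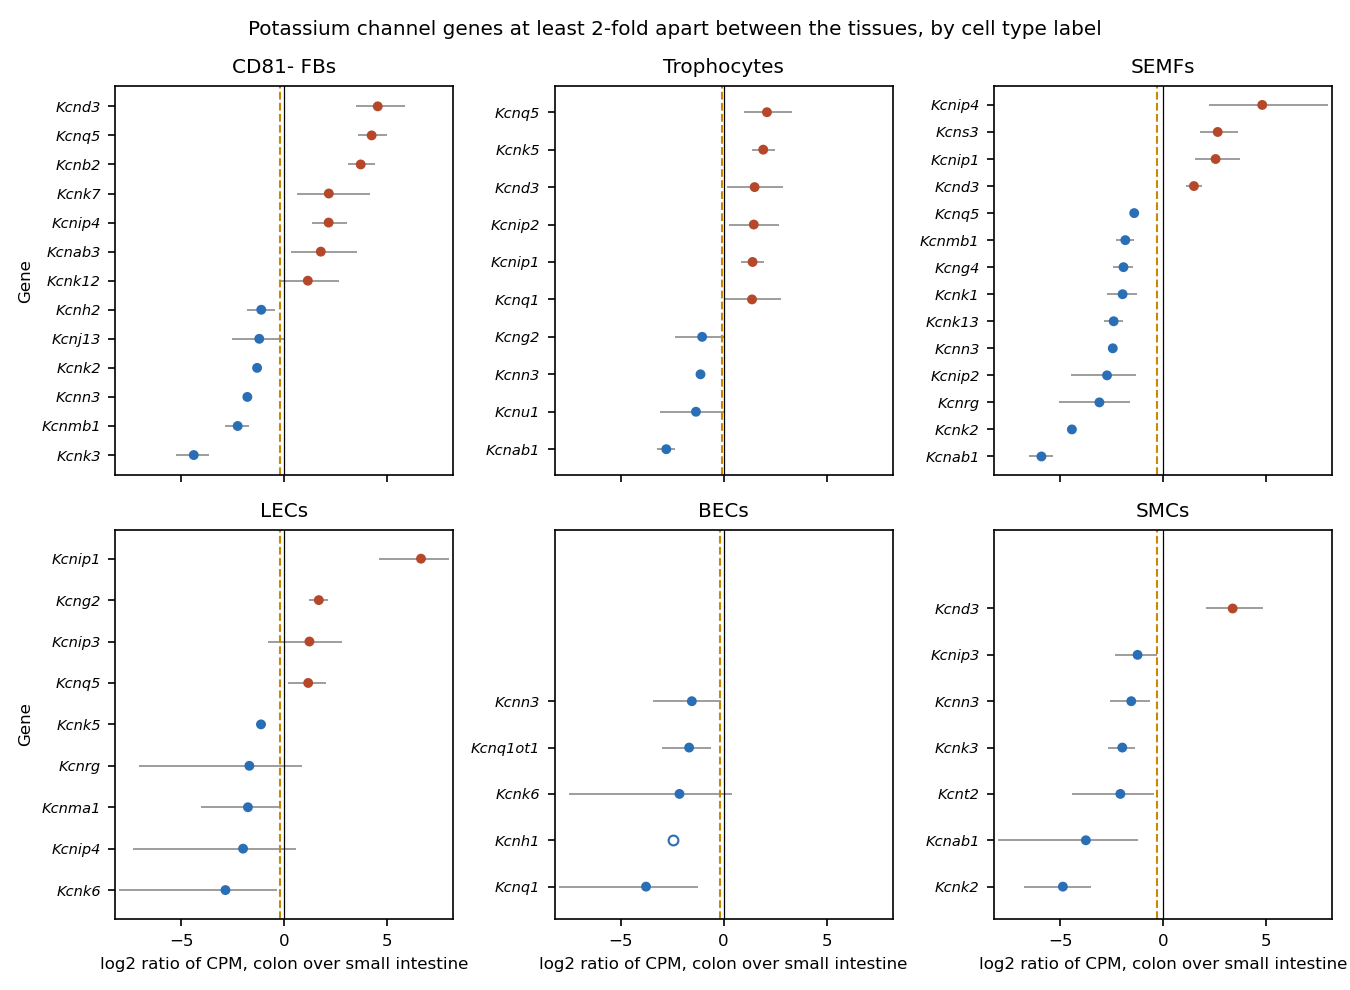
Members at least 2-fold apart between the tissues in each label, as log2 ratio of CPM in the colon over the small intestine (horizontal axis, lines are exact 95% intervals cut at the panel edge). Red points are higher in the colon, blue in the small intestine, the open point is a bound, and the dashed line is the median of all genes. In SEMFs, 10 of the 14 members shown lie left of 0, led by Kcnab1 at -5.91.

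Genes that act with these channels were read from a list of 32, of which 25 were listed in both tables. Of these, 4 led by 2-fold in the same label of both libraries. Of all genes with at least 10 UMIs in the leading label of each library, 8.35% did. The 25 were not held to that minimum, which Ryr2, with 9 UMIs in its leading label of the colon, did not reach. Cacna1c, the L-type calcium channel pore of smooth muscle, stood at 243 CPM in colon SMCs and 352 CPM in small intestinal SMCs, and Cacna1h, a T-type channel, at 47.9 and 21.0 CPM. In SEMFs, the T-type channel Cacna1g stood at 28.1 and 67.0 CPM and the ryanodine receptor Ryr3, a calcium release channel, at 43.2 and 113 CPM. Among partner subunits, Abcc9, the sulfonylurea receptor of vascular potassium channels, stood at 585 CPM in small intestinal SEMFs but at 60.4 CPM in colon SEMFs and 64.7 CPM in colon SMCs. Slc12a2, a cotransporter that takes up sodium, potassium and chloride, stood at 379 CPM in colon SMCs and 51.3 CPM in small intestinal SMCs. The purinergic receptor P2ry1 led in colon trophocytes at 59.7 CPM and in small intestinal SMCs at 90.2 CPM, by less than 2-fold in both.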

How the data were processed

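Stromal cells of 1 colon and 1 small intestine library were analysed. For each library the authors deposited raw UMI counts by gene and cell, natural log values of the same cells and a text table of labels. Cell Ranger 7.1.0, Seurat 4 and the mm10 build are named without a role in the submitters' processing notes. Per a check of the deposited values, the natural log table equals the log of 1 plus UMIs scaled to 10000 per cell. Whether reads were counted by strand and how cells were filtered is not given in the sources used here. Labels were taken as deposited, with colon CapECs, ArtECs and VenECs joined as BECs. Doublets were not removed.

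UMIs were summed per label and given as CPM with exact Poisson intervals. Shares carry Clopper-Pearson intervals and ratios exact conditional binomial intervals, all at 95%. A count of 0 was set to a floor of 3 UMIs. For thinned shares, cells under 2000 UMIs were left out, 69 in the colon and 343 in the small intestine. Members are specific when the leading label has at least 10 UMIs and is at least 2-fold above the next; tissues are compared with at least 20 UMIs together. Named members are those specific in both libraries, the 10 highest of each library, up to 3 per label specific in 1 library and up to 3 per label and direction between tissues, ranked after adding 10 CPM to both; partner subunits are named with them. Some genes that meet the rule for members are not reported here, and no count of members includes them. The members and lists were chosen with earlier results of these data known. The rules were tested on simulated counts. Alternatives are in the closing section. Python 3.11.15, numpy 2.4.6, scipy 1.17.1, pandas 2.3.3 and matplotlib 3.10.9 were used, with GENCODE M21 gene positions.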

Additional observations from a re-analysis of the deposited data

Results flagged for a closer look

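Kcnq5, Kcnk5, Kcnip2 and Kcnq1 were higher in the colon under some labels and higher in the small intestine under others, each by at least 2-fold with counting intervals that exclude 0, and the difference between labels was not tested. Kcnq5 had log2 ratios of colon over small intestine of 4.25 in CD81- FBs, 2.10 in trophocytes and 1.16 in LECs, but -1.41 in SEMFs. Kcnk5 had 1.92 in trophocytes and -1.13 in LECs. Kcnip2 had 1.46 in trophocytes and -2.73 in SEMFs, and Kcnq1 had 1.38 in trophocytes and -3.77 in BECs. The Kcnq1 values rested on 11 and 10 UMIs in trophocytes and on 1 colon UMI in BECs (interval -9.09 to -1.26), and the latter became 0.0596 in colon cells with Y-linked UMIs. Kcng2, Kcnip3 and Kcnip4 also passed 2-fold in both directions, but on one side the interval included 0: Kcng2 had -1.05 in trophocytes (-2.36 to 0.07), Kcnip3 had 1.23 in LECs (-0.80 to 2.83) and Kcnip4 had -1.997 in LECs (-7.33 to 0.56).

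The 19 genes listed for the small intestine alone entered no comparison, and 6 of them led there by at least 2-fold with at least 10 UMIs. Kcnj15 and Kcnj5 also had at least 10 UMIs but led by less. Among genes listed in both tables that had this minimum in the small intestine, 16.5% met the 2-fold rule there. The share among all genes listed for the small intestine alone was not computed. In BECs, Kcne3, a regulatory partner of Kcnq1 and other channels, stood at 40.1 CPM (32.2 to 49.5), Kcnc2 at 18.2 CPM and Kcna5 at 8.21 CPM. Kcnmb2, a regulatory subunit of the Kcnma1 channel, stood at 11.8 CPM in LECs, and Kcng1 at 2.86 CPM and Kcne1l at 0.998 CPM in trophocytes. The folds of Kcng1, 2.68 (0.857 to 13.5), and Kcne1l, 2.01 (0.845 to 5.01), had intervals that include no difference. Genes listed for the small intestine alone were not treated as 0 in the colon. Kcnj2, an inward rectifier of vascular cells, was also listed there alone and had 2 UMIs in BECs.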

How the results depend on the processing

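The count of 7 members specific to a label in both libraries ranged from 6 to 8 over 11 other settings. Kcnh2 was lost with thinned cells, with 20 UMIs and in colon cells with Y-linked or with Xist UMIs alone. Kcnmb1 was gained without the deepest cells, without mitochondrial and ribosomal genes and in SMCs with smooth muscle UMIs, Kcnt2 with natural log means, Kcnk3 in Y cells, Kcnab1 in Xist cells and Kcnmb4 at 5 UMIs. Pooling types into 3 classes, added after the data were seen, gave 13. The 58 pairs apart between tissues came to 37 with thinned cells, 27 at 4-fold and 38 with 50 UMIs. Those higher in the colon, 22, came to 14 in Xist cells, 9 thinned, 11 at 4-fold and 11 with 50 UMIs, and those higher in the small intestine, 36, to 16 at 4-fold. No paired analysis was possible because each tissue had 1 library. For single members, 229 of 253 values of the fold over the next label and 437 of 490 log2 ratios between tissues stayed within their counting interval, and 6 and 13 changed sign. The cause was not tested.

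The log2 fold of CD81- FBs for Kcnd2 in the colon became -1.03 (Y cells), -0.11 (Xist cells) and -0.72 (thinned). That of LECs for Kcnip4 in the small intestine became -0.57 without the deepest cells, -0.78 thinned and -0.58 without the cell with most UMIs. The log2 ratio of colon to small intestine became -0.0499 for Kcnd3 in trophocytes (Xist cells). In LECs it became 0.83 (Y cells) and 0.12 (thinned) for Kcnk6. For Kcnip4 in LECs it became 0.39 (without the deepest cells), 1.69 (Y cells), 2.44 (thinned), 0.11 (natural log means) and 1.99 (without the top cell), and for Kcnma1 in LECs 0.34 (Y cells). In BECs it became 1.68 (Y cells) and 0.42 (thinned) for Kcnk6, 0.28 (Y cells) for Kcnn3 and 0.0596 (Y cells) for Kcnq1. Kcnk6 and Kcnip4 had 1 colon UMI each in LECs, and Kcnk6 and Kcnq1 had 1 each in colon BECs.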
